A study of Homo sapiens with 18 samples.

Results

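Bivalent promoters were read here as narrow H3K27me3 loci at or near the start of a protein-coding gene that also touched an H3K4me3 interval. Overlapping H3K27me3 intervals were merged into 13899 loci, of which 1584 (11.4%) were kept. A kept locus was under 15 kb wide, reached the window 2 kb either side of a protein-coding transcription start site (TSS), and shared at least 1 bp with an H3K4me3 interval. That interval could touch any stretch of the locus and did not have to lie at the TSS. The rule used positions only and no difference between treatments, although a locus had to carry both marks to have the intervals. Each locus is called by the gene or genes whose window it reached, 1682 genes in all, and 1411 loci reached a single gene.

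H3K27me3 is laid down by Polycomb repressive complex 2 and accompanies silent developmental genes. H3K4me3 is laid down by the SET1 and KMT2 methyltransferases at active and at CpG-rich promoters. A promoter with both marks is called bivalent, a state best known from stem cells, where it is found at genes of lineage choice that are silent and can still be switched on.

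The cells were MOLM-13, an established KMT2A-r acute myeloid leukemia line, so that all groups share 1 genetic background and 1 cell type. They received 100 nM PR-957 (ONX-0914), an inhibitor of the immunoproteasome subunit PSMB8, or the diluent DMSO, and the labels give 72 h for both, whereas a figure legend of the study gives a shorter time for this assay. Each of H3K27me3, H3K4me3, H3K27ac (a mark of active promoters and enhancers) and H3K4me1 (a mark of enhancers and promoter flanks) was profiled by Cut&Tag, in which an antibody directs Tn5 transposase to the marked chromatin, with 2 libraries per treatment. The 16 libraries held from 9885836 counts (H3K27ac, PR-957 library 1) to 44591150 counts (H3K4me3, DMSO library 1), and the PR-957 libraries of H3K4me3 and H3K4me1 were shallower than the DMSO libraries. The 2 IgG samples were not analysed here. In such bulk material, both marks on the same chromosome cannot be told apart from a mixture of cells, and fewer cells with a mark cannot be told apart from less of it per cell. The labels do not say whether libraries of a group came from separate cultures, so the p-values measure the spread between these libraries.

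Most of the loci matched the label. Of the 1584 loci, 1429 (90.2%) had a protein-coding TSS inside the locus itself, and H3K4me3 intervals covered a median 47.5% of the locus (quartiles 31.2% and 74.5%). H3K4me3 covered the whole locus at 175 loci and under 10% of it at 26 loci, so that at the latter the marks were neighbors more than they were superimposed. The loci had a median width of 5450 bp (quartiles 3021 and 8462 bp). An H3K27ac interval was also present at 709 loci (44.8%) and an H3K4me1 interval at 691 (43.6%), while 591 had neither. The markers of the line were myeloid: of 10 myeloid genes, including SPI1, CEBPA and CSF1R, 9 had H3K4me3, 9 had H3K27ac and none had H3K27me3 within 2 kb of a TSS. Of 19 marker genes of other tissues, 10 had H3K27me3, and 5 of them (CD8A, KLF1, NEUROD1, EPCAM and COL1A1) lay at bivalent loci. NEUROD1 itself had no H3K4me3 interval within 2 kb of a TSS, so the H3K4me3 of its locus lay farther away.

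Bivalent promoters are known to be rich in CpG dinucleotides, the sites of DNA methylation in vertebrates, and 6 promoters are shown for that reason, with every CpG in capitals. Each runs from 250 bases before to 50 bases after the gene's start as RefSeq lists it, 5′ to 3′ on the gene's strand (GRCh38.p14). The promoters of OTX1 (chr2:63050580-63050879, plus strand) and SP5 (chr2:170715087-170715386, plus strand) belong to loci with lower H3K27me3 after PR-957, those of MXRA8 (chr1:1358498-1358797, minus strand) and HCN2 (chr19:589631-589930, plus strand) to loci with higher H3K27me3. NR4A3 (chr9:99821635-99821934, plus strand) was called in H3K27me3 and H3K27ac. SAMD11 (chr1:925481-925780, plus strand) is at the locus with the highest H3K27me3 level, although this listed start lies outside the locus. SP5 and HCN2 were chosen after their values were seen.
OTX1: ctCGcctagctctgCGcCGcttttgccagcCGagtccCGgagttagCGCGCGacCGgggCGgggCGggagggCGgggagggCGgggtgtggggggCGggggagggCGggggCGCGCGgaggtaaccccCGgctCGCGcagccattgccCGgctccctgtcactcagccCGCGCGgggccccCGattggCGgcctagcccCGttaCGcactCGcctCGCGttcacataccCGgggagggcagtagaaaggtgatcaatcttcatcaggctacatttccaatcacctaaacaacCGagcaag
SP5: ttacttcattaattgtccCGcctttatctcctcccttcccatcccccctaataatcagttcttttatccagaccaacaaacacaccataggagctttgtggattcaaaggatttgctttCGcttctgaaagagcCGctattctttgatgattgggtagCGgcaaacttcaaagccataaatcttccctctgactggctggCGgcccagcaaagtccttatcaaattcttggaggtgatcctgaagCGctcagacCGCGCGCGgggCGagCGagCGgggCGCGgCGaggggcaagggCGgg
NR4A3: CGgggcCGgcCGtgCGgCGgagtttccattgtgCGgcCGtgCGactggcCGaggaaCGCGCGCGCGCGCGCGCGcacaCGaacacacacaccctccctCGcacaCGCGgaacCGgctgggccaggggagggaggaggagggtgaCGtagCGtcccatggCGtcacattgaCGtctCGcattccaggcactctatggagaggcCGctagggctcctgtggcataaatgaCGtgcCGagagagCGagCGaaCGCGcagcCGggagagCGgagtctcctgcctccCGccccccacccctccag
MXRA8: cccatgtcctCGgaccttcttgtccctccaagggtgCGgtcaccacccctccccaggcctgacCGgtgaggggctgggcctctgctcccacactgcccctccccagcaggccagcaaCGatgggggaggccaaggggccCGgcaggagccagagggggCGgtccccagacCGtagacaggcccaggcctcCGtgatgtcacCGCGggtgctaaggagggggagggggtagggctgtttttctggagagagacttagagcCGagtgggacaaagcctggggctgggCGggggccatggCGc
HCN2: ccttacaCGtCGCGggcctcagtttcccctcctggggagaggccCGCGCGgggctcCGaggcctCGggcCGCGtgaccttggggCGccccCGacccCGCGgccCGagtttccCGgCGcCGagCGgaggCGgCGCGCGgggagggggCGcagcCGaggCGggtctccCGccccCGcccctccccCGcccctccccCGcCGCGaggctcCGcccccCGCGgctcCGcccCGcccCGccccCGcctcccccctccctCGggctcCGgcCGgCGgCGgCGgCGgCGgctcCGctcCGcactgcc
SAMD11: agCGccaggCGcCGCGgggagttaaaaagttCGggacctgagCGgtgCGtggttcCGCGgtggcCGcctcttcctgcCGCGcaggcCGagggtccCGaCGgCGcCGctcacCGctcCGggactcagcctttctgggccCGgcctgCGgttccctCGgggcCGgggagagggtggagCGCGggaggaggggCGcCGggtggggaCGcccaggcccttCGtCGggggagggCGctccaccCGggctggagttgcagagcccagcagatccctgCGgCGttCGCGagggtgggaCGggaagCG

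The capitals crowd the OTX1, NR4A3, SAMD11 and HCN2 promoters, with 34, 38, 38 and 49 CpG in 300 bases, and are fewer in SP5 (17) and MXRA8 (13). The MXRA8 promoter shown lay inside the H3K27me3 locus with no base in an H3K4me3 interval, so that its H3K4me3 belonged to another stretch of the locus, whereas the OTX1, SP5, NR4A3 and HCN2 promoters lay inside both marks over all 300 bases. RefSeq listed 1702 promoters that touch a bivalent locus, over 1067 of the 1584 loci, and 1537 of them (90.3%) touched an H3K4me3 interval. These 1702 held a median of 29 CpG, against 14 for all 35116 listed promoters and 21 for the 1392 at narrow promoter loci without H3K4me3. The Sp1 and KLF motif GGGCGG, searched on both strands, was in 74.9% of the promoters at bivalent loci and in 45.0% of all promoters. CCAAT, the NF-Y motif, was in 26.3% against 34.6%, and TATAA, the core of the TATA box, in 10.6% against 20.4%. At narrow promoter loci without H3K4me3, GGGCGG was in 58.2%, CCAAT in 25.6% and TATAA in 14.6%, so that low CCAAT was shared by both. These shares count letters and not bound sites.

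In DMSO the widest H3K27me3 interval of the loci had a median of 1.81 CPM per kb (CPM, counts per 1e6 counts of a library, normalized with TMM factors), above the 1.19 of 2379 narrow promoter loci without H3K4me3 and the 0.862 of 9149 narrow loci away from promoters, and below the 5.26 of 787 loci of 15 kb or more. H3K4me3 at the bivalent loci had a median of 1.68 CPM per kb, against 4.54 at 9984 H3K4me3 promoter loci without H3K27me3, and 175 of the 1584 lay above that second median. The intervals of the 9984 had to lie within 2 kb of a TSS, which was not required of the H3K4me3 intervals of bivalent loci. The bivalent loci with H3K27ac had more H3K4me3 (median 2.90 CPM per kb) than those without (1.17), and their H3K27me3 medians were 1.72 and 1.91. Over loci, the DMSO levels of H3K27me3 and H3K4me3 ran weakly against each other (Spearman rho -0.20, 1546 loci), and those of H3K4me3 and H3K27ac ran together (rho 0.65, 708 loci). These are descriptions across loci whose points share the same libraries, widths and base composition.

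**Figure D1:**
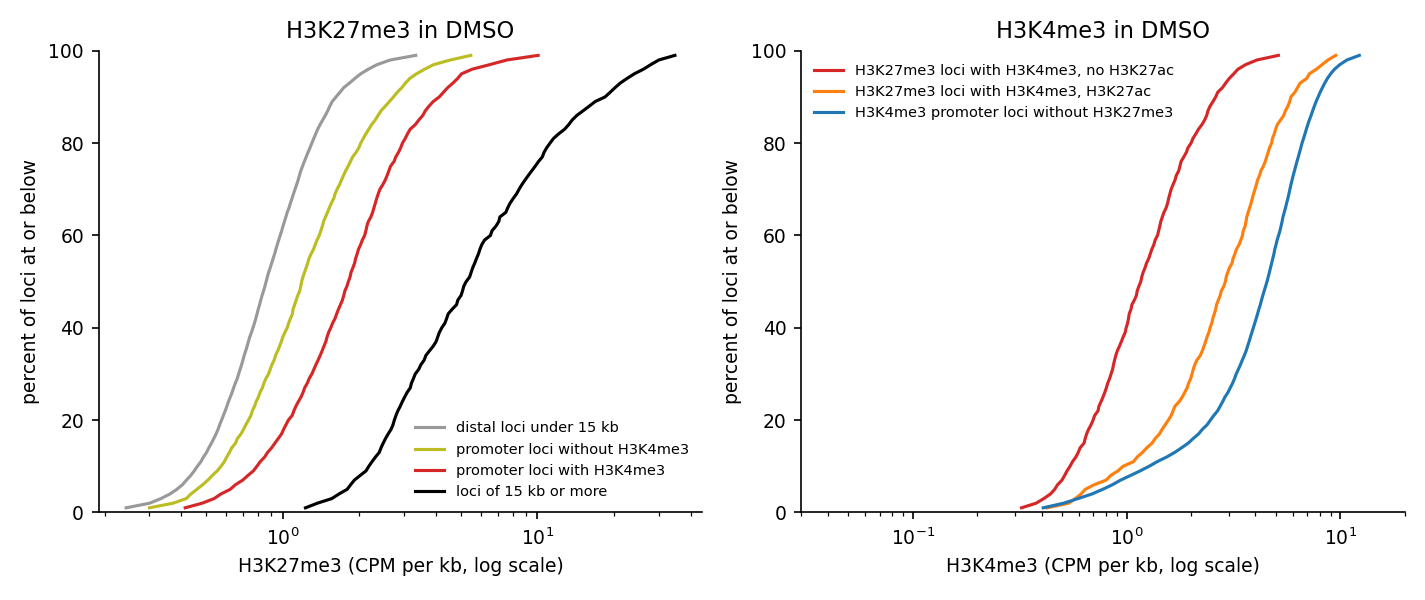
Level of H3K27me3 (left) and H3K4me3 (right) in DMSO as CPM per kb on a log axis, against the percent of loci at or below that level, for the mean of the 2 DMSO libraries. The bivalent loci (left, red) lay between narrow promoter loci without H3K4me3 and loci of 15 kb or more, and the right panel shows H3K4me3 lowest at bivalent loci without H3K27ac (median 1.17) and highest at promoters without H3K27me3 (median 4.54).

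The strongest H3K27me3 among the loci was at NOC2L/SAMD11, with 30.4 CPM per kb in DMSO, followed by the locus of CAPN15, NHLRC4, PIGQ and PRR35 (21.8), SHISA8 (20.2), EHBP1/OTX1 (19.6) and BHLHE22 (17.2). H3K4me3 covered only 3.55% of the locus of CAPN15, NHLRC4, PIGQ and PRR35, so that the marks there were mostly neighbors. At NOC2L/SAMD11 the 4 libraries gave 331, 318, 370 and 332 CPM (DMSO 1 and 2, PR-957 1 and 2), and the PR-957 values lay just above the DMSO values, with no call (log2 fold change 0.11 ± 0.05 SE, adjusted p = 0.258 by edgeR). The 5 lowest tested loci were DNASE2, a second NFIA locus, IL15RA, TMEM47 and CPNE7, between 0.18 and 0.27 CPM per kb in DMSO. DNASE2, a lysosomal nuclease, had 0.32 and 0.44 CPM in DMSO and 1.11 and 2.78 in PR-957, from a mean of 14 counts, and its H3K27me3 was called higher (adjusted p = 0.035 by edgeR). As these 5 were picked for low DMSO values, a higher PR-957 value at them is no separate finding. The width limit of 15 kb ran through a continuous range: TRIL, DLL3 and ALDH1A3 lay just inside at 14885, 14958 and 14969 bp with log2 fold changes of -0.16, 0.10 and 0.0033, and PTPRU, RPS6KA2 and GALNT16 just outside at 15028, 15075 and 15085 bp with 0.14, 0.10 and -0.14.

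H3K27me3 was lower after PR-957 at 53 of 1546 bivalent loci tested and higher at 15 (edgeR, adjusted p under 0.05 over all intervals). These are 3.43% and 0.97% of the loci. Over all 31806 H3K27me3 intervals, 5.09% were lower and 0.824% higher. Over the widest interval of every H3K27me3 locus, the wide loci included, 3.20% were lower and 0.761% higher, which is close to the shares of the bivalent loci. Their median log2 fold change was -0.033, against 0.016 over all intervals and 0.098 over the widest interval of every locus, and 92.4% of them changed by less than 1.5-fold. Of the loci of 15 kb or more, 31.9% were lower, but these held a median of 1148 counts per interval against 94.8 for the bivalent loci. Among narrow promoter loci without H3K4me3 1.35% were lower and 0.990% higher, and among narrow loci away from promoters 0.782% and 0.321%. Those narrow loci held fewer counts, with medians of 38.8 and 17.5 per interval. The remaining 38 bivalent loci were below the count filter.

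These directions rest on the scaling and on which intervals enter the fit. With only the intervals of a mean count of at least 50 in the fit the split was 45 higher and 38 lower, and with 1 interval per locus 7 higher and 80 lower. With library size alone the split of the bivalent loci turned to 81 higher and 8 lower, and their median to 0.13, because the TMM factors shift all H3K27me3 intervals by a median 0.16 on the log2 scale (0.016 with TMM, 0.18 with library size). Every one of the 15 higher loci was also called higher with library size, and 8 of the 53 lower loci were also called lower with it. A change in the total amount of H3K27me3 per cell was not measured.

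**Figure D2:**
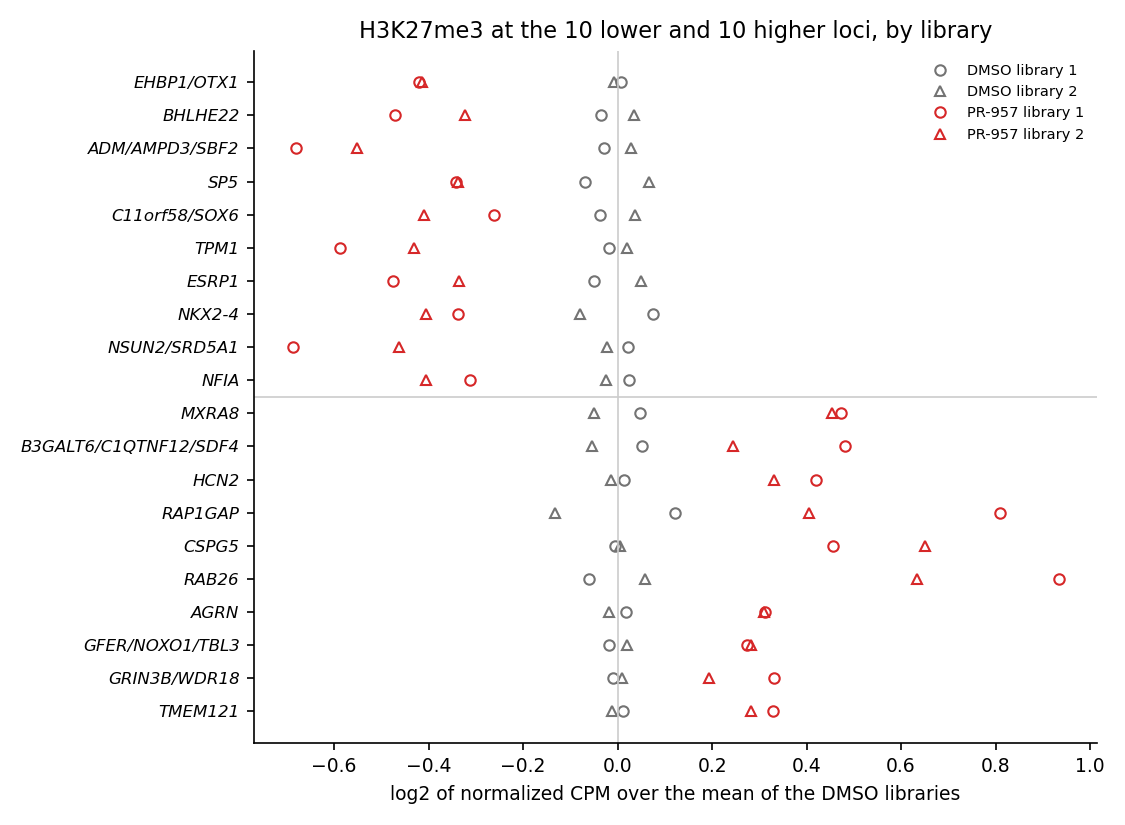
H3K27me3 in each library at the 10 lower and 10 higher loci with the smallest p, as log2 of normalized CPM over the mean of the 2 DMSO libraries. Circles and triangles are libraries 1 and 2, gray for DMSO and red for PR-957, and at every locus shown both PR-957 libraries lie on 1 side of both DMSO libraries, which the choice of loci required.

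At EHBP1/OTX1, a locus of 14608 bp over the start of the homeobox factor OTX1, a regulator of forebrain development, H3K27me3 was 288 and 285 CPM in DMSO and 214 and 215 in PR-957. The PR-957 libraries lay well below and the spread within each group was small (log2 fold change -0.42 ± 0.05 SE, adjusted p = 1.12e-10 by edgeR), and the call held under all 13 other settings, from -0.48 to -0.25. At the SP5 promoter, an Sp-family factor induced by WNT signaling, the libraries gave 149 and 163 CPM in DMSO and 123 and 124 in PR-957 (-0.34 ± 0.06, adjusted p = 8.66e-06 by edgeR). The locus shared by ADM, AMPD3 and SBF2 fell from 45.9 and 47.8 CPM to 29.2 and 31.9 (-0.61 ± 0.10, adjusted p = 9.73e-07 by edgeR). ADM encodes the vasodilator peptide adrenomedullin.

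The other named loci with lower H3K27me3 were BHLHE22 and NKX2-4, neural transcription factors (-0.39 and -0.37), C11orf58/SOX6 and NFIA, factors of neural, cartilage or glial differentiation (-0.34 and -0.36), ESRP1, an epithelial splicing regulator (-0.40), TPM1, a tropomyosin (-0.50), and NSUN2/SRD5A1, an RNA methyltransferase and a steroid reductase (-0.56). In each of these 7 the PR-957 libraries lay below both DMSO libraries, as the choice of named loci required. With library size alone, SOX6, ESRP1, NKX2-4 and NFIA kept their sign and lost the call (adjusted p = 0.0616, 0.0508, 0.101 and 0.147 by edgeR). SP5 lost it without DMSO replicate 2 (adjusted p = 0.056), NKX2-4 without DMSO replicate 1 and SRD5A1 without PR-957 replicate 1 (adjusted p = 0.0588).

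Among the loci with higher H3K27me3, MXRA8, a matrix adhesion protein, led with 101.3 and 94.7 CPM in DMSO and 136 and 134 in PR-957 (log2 fold change 0.46 ± 0.07 SE, adjusted p = 5.93e-09 by edgeR). HCN2, a pacemaker cation channel, had 79.7 and 78.2 CPM in DMSO and 106 and 99.3 in PR-957 (0.38 ± 0.07, adjusted p = 2.71e-05 by edgeR). The locus of B3GALT6, C1QTNF12 and SDF4, of which H3K4me3 covered only 3.43%, had 155 and 144 CPM in DMSO and 208 and 177 in PR-957 (0.37 ± 0.06, adjusted p = 5.78e-07 by edgeR). In all 3 the groups did not overlap, as the choice of named loci required. RAP1GAP, a GTPase activator, CSPG5, a neural proteoglycan, and RAB26, a secretory GTPase, had larger changes from fewer counts (0.62, 0.56 and 0.78). AGRN (agrin, the organizer of the neuromuscular junction), GFER/NOXO1/TBL3, GRIN3B/WDR18 and TMEM121 had 0.31, 0.28, 0.26 and 0.31, and their calls were lost with GC content offsets, with 0.14, 0.14, 0.14 and 0.22 and adjusted p = 0.419, 0.297, 0.275 and 0.12 by edgeR. They were also lost with 1 interval per locus, without DMSO replicate 1 and without DMSO replicate 2, and without a DMSO library their values ranged from 0.24 to 0.32. Leaving out PR-957 library 1 also ended the calls at AGRN, GRIN3B/WDR18 (0.18) and TMEM121, and leaving out PR-957 library 2 those at AGRN, GFER/NOXO1/TBL3 and TMEM121. RAP1GAP lost its call without DMSO replicate 2 or PR-957 replicate 1, CSPG5 without PR-957 replicate 2, and RAB26 without DMSO replicate 1 or PR-957 replicate 1.

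The lower and the higher loci differed in base composition. The 53 lower loci had a median GC content of 49.2% (43.1% to 59.5%) and the 15 higher ones 62.4% (53.9% to 67.4%), against 54.1% for the 1478 not called. Chromosome 19 held 81 of the bivalent loci, with 5 of the 15 higher and none of the 53 lower. From the lowest to the highest quintile of GC content the median H3K27me3 log2 fold change went from -0.12 to 0.12 with TMM factors, with 27, 13, 9, 4 and 0 lower loci and 0, 0, 1, 6 and 8 higher loci. With offsets fitted to GC content the same medians went from -0.066 to 0.011, and 53 loci were lower, 42 of them in common with the TMM fit, and 10 higher, 9 of them in common. The lowest quintile of GC content also had more counts (median 159 per interval against 45.5 in the highest) and less H3K27ac (29.7% against 71.8% of loci). Whether base composition had a part in the changes beyond what the offsets removed was not tested.

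The level of H3K27me3 also went with the calls. Of the 53 lower loci, 38 were in the highest quintile of mean H3K27me3 CPM per kb, and so were 10 of the 15 higher ones. That quintile had a median of 412 counts per interval, against 21.2 in the lowest quintile, and counts set how small a change can be called. An H3K27ac interval was present at 20 of the 53 lower loci (37.7%) and 10 of the 15 higher loci (66.7%), against 44.8% of all bivalent loci.

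Little of the change in H3K27me3 was mirrored in the other marks. Over 1546 loci the H3K27me3 and H3K4me3 changes had a Spearman rho of -0.094, and the H3K27me3 and H3K27ac changes -0.12 over 684 loci, values given as descriptions across loci. At the 53 loci with lower H3K27me3, H3K4me3 had a positive log2 fold change at 40 and a median of 0.13. Over all 1584 loci it was positive at 1102, with a median of 0.082.

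H3K4me3 was called higher at 3 of the 1584 bivalent loci and lower at none (edgeR), or 0.189% and 0%, against 0.181% higher and 0.0456% lower over all H3K4me3 intervals. At an unadjusted p under 0.05 edgeR had 131 higher and 21 lower, and DESeq2 called none after adjustment, with 58 and 9 before it. Some neighboring loci shared their widest interval, so the 1584 values came from 1543 intervals. At EHBP1/OTX1 the widest H3K4me3 interval had 17.6 and 15.8 CPM in DMSO and 23.6 and 21.2 in PR-957 (log2 fold change 0.42 ± 0.09 SE, adjusted p = 0.00116 by edgeR, 0.304 by DESeq2). The groups did not overlap there, as the choice of named loci required. Leaving out DMSO replicate 2 or PR-957 replicate 1 ended the call. LRIG1, a feedback inhibitor of EGF receptors, had 4.27 and 5.33 CPM in DMSO and 8.73 and 6.41 in PR-957 (0.66 ± 0.16, adjusted p = 0.0167 by edgeR, 0.913 by DESeq2). EML5, a microtubule-associated protein, had 7.20 and 7.06 CPM against 9.06 and 11.2 (0.51 ± 0.13, adjusted p = 0.0328 by edgeR). The calls at LRIG1 and EML5 were lost with GC content offsets and with either DMSO library left out, that at LRIG1 also with PR-957 library 1 and that at EML5 also with PR-957 library 2 left out. The median change of all bivalent loci, 0.082 against -0.0010 over all H3K4me3 intervals, was 0.0077 when PR-957 library 1 was left out and 0.16 when library 2 was, so its size rested on these libraries.

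H3K27ac was called at 2 of the 708 bivalent loci tested, 1 in each direction (0.141% each), against 0.0644% higher and 0.173% lower over all H3K27ac intervals. NR4A3, an immediate-early orphan nuclear receptor and a tumor suppressor in myeloid leukemia, rose from 45.0 and 43.6 CPM in DMSO to 57.5 and 56.8 in PR-957 (log2 fold change 0.37 ± 0.09 SE, adjusted p = 0.0135 by edgeR, 0.0299 by DESeq2). Its H3K27me3 fell at the same locus, from 33.2 and 33.9 CPM to 24.9 and 24.6 (-0.44 ± 0.12, adjusted p = 0.00588 by edgeR, 0.159 with library size), while its H3K4me3 gave 56.8 and 63.3 against 58.4 and 59.5 CPM (adjusted p = 0.967 by edgeR). The H3K27ac interval read there lay only partly inside the H3K27me3 locus. The H3K27ac call at NR4A3 was lost with any 1 of the 4 libraries left out, with values from 0.35 to 0.39.

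MEIS1, the homeobox partner of HOXA proteins and a target of KMT2A fusions, had the lower H3K27ac, with 248 and 249 CPM in DMSO and 201.5 and 209 in PR-957 (log2 fold change -0.28 ± 0.04 SE, adjusted p = 4.08e-07 by edgeR). The call held under all 13 other settings. Its H3K27me3 locus was 3797 bp wide with 4.36 to 7.72 CPM, and the RefSeq start of MEIS1 lay outside that locus and inside H3K4me3, which covered 40.6% of the locus. Most of the H3K27ac interval and of the H3K4me3 interval read for MEIS1 lay outside the H3K27me3 locus, so the lower H3K27ac was mainly beside it. Its H3K4me3 did not pass the test, with 99.6 and 102 CPM in DMSO and 96.9 and 97.3 in PR-957 (adjusted p = 0.927 by edgeR). Over the 708 loci the median H3K27ac change was 0.14 against 0.00 over all H3K27ac intervals, and it was 0.19, 0.083 and 0.14 at the other narrow promoter loci, the distal loci and the loci of 15 kb or more.

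**Figure D3:**
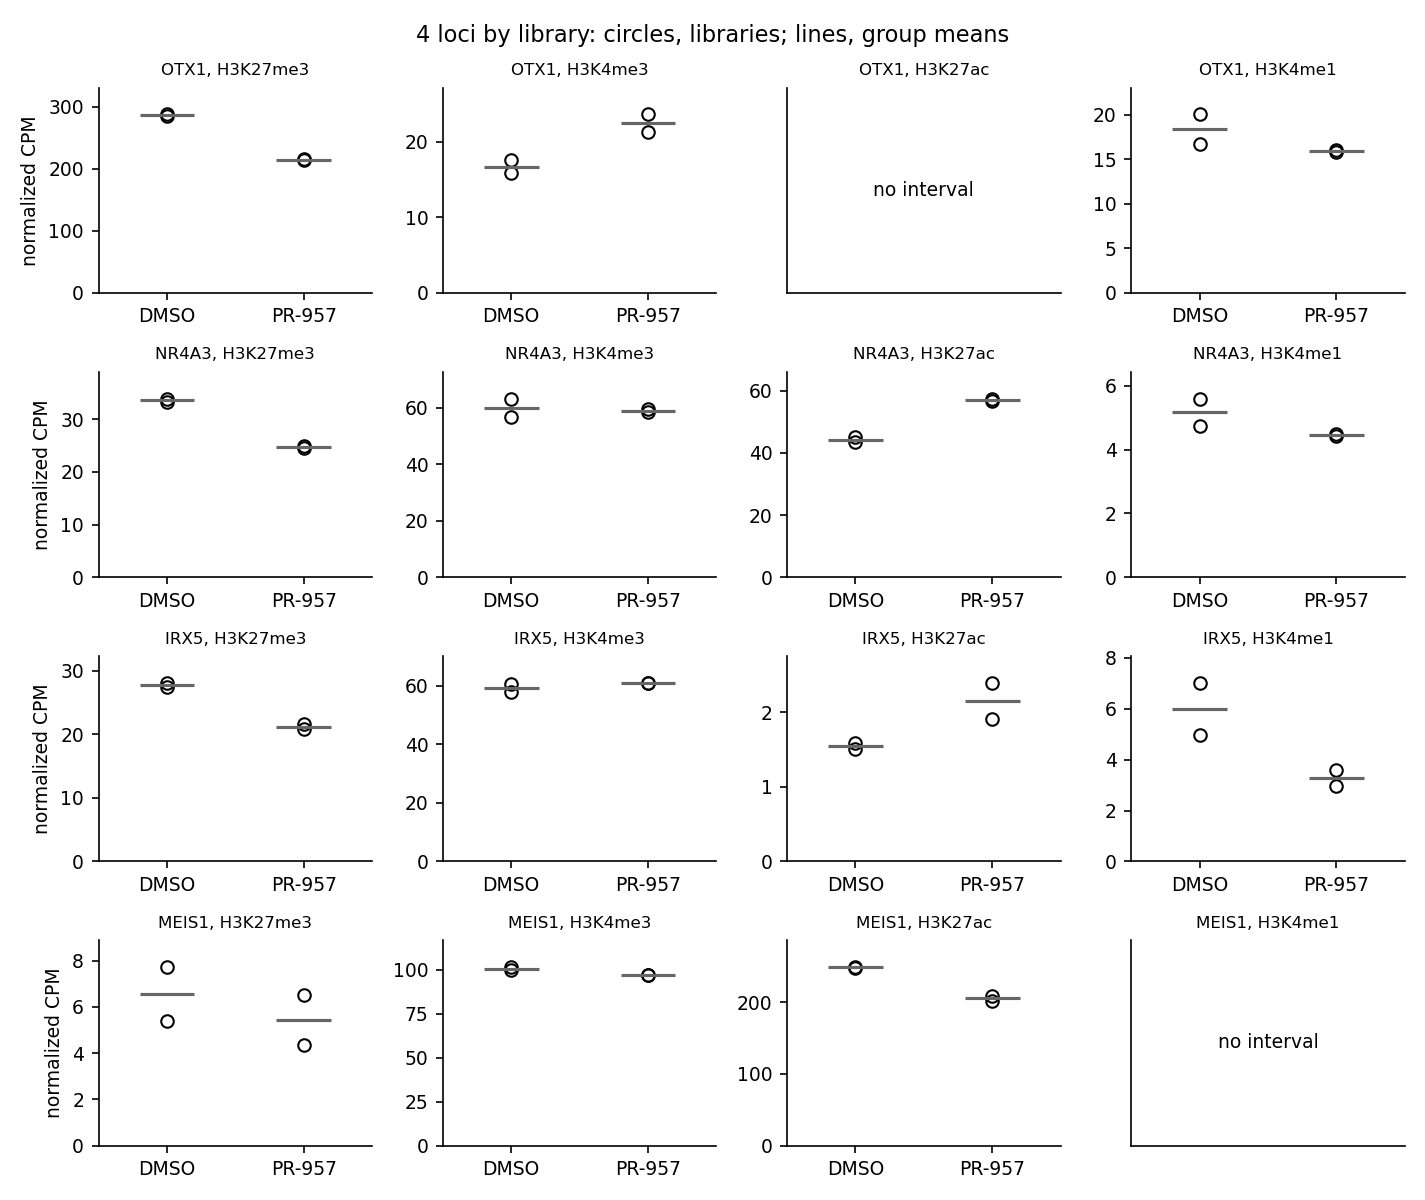
Normalized CPM of the widest interval in each library (circles) with group means (lines) for OTX1, NR4A3, IRX5 and MEIS1, 1 row each, in H3K27me3, H3K4me3, H3K27ac and H3K4me1, with each axis starting at 0. H3K27me3 was lower in both PR-957 libraries at OTX1, NR4A3 and IRX5, H3K4me3 was higher at OTX1 and H3K27ac at NR4A3, and H3K27ac was lower at MEIS1. The H3K27ac interval at MEIS1 and the H3K4me3 intervals at MEIS1 and IRX5 lay mostly outside the H3K27me3 loci.

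H3K4me1 was called lower at 16 of the 691 bivalent loci with an interval and higher at none (edgeR), or 2.32% and 0%. Each was read at the widest overlapping interval, which could lie mostly outside the locus. Over all H3K4me1 intervals 0.701% were lower and 1.24% higher. At an unadjusted p under 0.05 edgeR had 117 lower and 11 higher loci, and DESeq2 called none after adjustment, with 60 and 5 before it. The shift depended on the correction for base composition. The median change was -0.14 against -0.0011 over all intervals, and with GC content offsets it was -0.0058, with 2 loci lower and 4 higher. The H3K4me1 intervals of these loci had a median GC content of 59.9%, against 46.3% over all H3K4me1 intervals tested.

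ALS2CL/TMIE had the smallest p, with 8.43 and 9.62 CPM of H3K4me1 in DMSO and 4.36 and 5.22 in PR-957 (log2 fold change -0.89 ± 0.17 SE, adjusted p = 0.000306 by edgeR, 0.180 by DESeq2), and remained past the threshold with GC content offsets (adjusted p = 0.00569 by edgeR). ZBTB7C, a zinc finger repressor, had 15.7 and 15.3 CPM against 11.6 and 10.3 and also passed with the offsets (adjusted p = 0.0351 by edgeR), but not when any 1 library was left out. The H3K4me1 intervals read at ALS2CL/TMIE, ZBTB7C, PDLIM2 and KLK1 lay mostly outside their H3K27me3 loci, and that at IRX5 lay inside. PDLIM2, IRX5 and KLK1 had -0.53, -0.84 and -0.69 and lost the call with the offsets (adjusted p = 0.080, 0.056 and 0.092 by edgeR). All 3 also lost it when PR-957 library 1 was left out, PDLIM2 and KLK1 without DMSO library 1, IRX5 and KLK1 without DMSO library 2, and PDLIM2 without PR-957 library 2. Without DMSO replicate 1, DMSO replicate 2 or PR-957 replicate 1 there were 2, 3 and 2 lower loci left.

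Counting across marks, 3 loci were called in 2 marks and none in more. These were EHBP1/OTX1 and NR4A3, described with H3K4me3 and H3K27ac, and IRX5, an Iroquois homeobox factor. At IRX5 the H3K27me3 libraries gave 28.1 and 27.5 CPM in DMSO and 20.9 and 21.6 in PR-957 (log2 fold change -0.39 ± 0.13 SE, adjusted p = 0.0448 by edgeR, 0.341 with library size), and H3K4me1 gave 4.98 and 7.02 against 2.95 and 3.61 CPM (-0.84 ± 0.21, adjusted p = 0.0108 by edgeR). Its H3K4me3 interval, with 57.9 and 60.7 CPM in DMSO and 60.9 and 61.0 in PR-957, did not pass (adjusted p = 0.949 by edgeR). That interval lay mostly outside the H3K27me3 locus.

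The genes at bivalent loci came from many families, developmental and other. Of 20007 protein-coding genes 8.41% lay at such a locus, against 52.4% of the Hedgehog and Notch pathway list (11 of 21 genes), 34.7% of FGF, EGF, PDGF and ephrin ligands and receptors (26 of 75), 32.8% of TGF-beta and BMP genes (21 of 64), 28.6% of WNT genes (16 of 56) and 25% of nuclear receptors (11 of 44). Homeobox factors were at 8.89% (16 of 180), and 123 of the 180 lay at loci of 15 kb or more. Ion channels (18.9%), axon guidance and cell adhesion genes (14.3%) and solute carriers (12.2%) also lay above 8.41%. Narrow promoter loci without H3K4me3 held 16 WNT genes and 24 genes of the FGF, EGF, PDGF and ephrin list, so these 2 families were not particular to bivalent loci. They held fewer Hedgehog and Notch, TGF-beta and BMP, and nuclear receptor genes (5, 7 and 7). None of 80 cytosolic ribosomal protein genes lay at a bivalent locus. The lists were chosen with results of these data known.

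Several families of transcription factors had loci with lower H3K27me3, and those named here beyond the rule for named loci are the called loci of each list, chosen after their values were seen. Of 16 loci with a homeobox gene, 5 were lower (OTX1, NKX2-4, PROX1, ISL2 and IRX5) and none higher, with a median log2 fold change of -0.29. Of 17 loci of forkhead, SOX, T-box and GATA factors, 4 were lower (TBX20, SOX6, FOXN4 and SOX3), and of 15 basic helix-loop-helix loci 4 were lower (BHLHE22, HEY2, BHLHE41 and NHLH2), both with a median of -0.14. Over all bivalent loci tested 3.43% were lower, and of these 13 called loci only OTX1 and BHLHE22 also passed with library size, the other 11 having adjusted p from 0.0616 to 0.551 by edgeR. At TBX20, a factor of heart development, the libraries gave 130 and 130 CPM in DMSO and 102 and 112 in PR-957 (adjusted p = 0.00119 by edgeR), and at SOX18, a factor of vessel growth, 106 and 103 against 106 and 106 (adjusted p = 0.898 by edgeR). The 13 loci of KLF, EGR, GLI, ZIC and GFI factors had no call and a median of 0.020, with GLI4 and GLIS1 at 0.33 and -0.15. With library size the median of the homeobox loci stayed below 0 (-0.13), and those of the forkhead group and the basic helix-loop-helix group were 0.023 and 0.025, above 0. The median H3K27me3 in DMSO of the homeobox, forkhead and basic helix-loop-helix loci was 2.53, 2.91 and 4.04 CPM per kb, beside 1.81 for all bivalent loci.

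Among signaling genes the WNT list had the most calls, beside 3.43% lower and 0.97% higher over all bivalent loci tested. Of 19 WNT loci 3 were lower: LEF1, a WNT-responsive factor (137 and 128 CPM in DMSO, 113 and 109 in PR-957, adjusted p = 0.00309 by edgeR), SFRP2, a secreted WNT antagonist (75.1 and 69.3 against 54.5 and 59.4, adjusted p = 0.00185 by edgeR), and RSPO2, a WNT agonist (-0.52). With library size these 3 had -0.096, -0.17 and -0.36 and none passed (adjusted p = 0.401, 0.212 and 0.0761 by edgeR). Of 11 Hedgehog and Notch loci, PTCH1, the Hedgehog receptor, was lower (-0.45, adjusted p = 0.0116 by edgeR, 0.186 with library size), and the ligand DHH and the receptor NOTCH3, the most strongly marked of the list, had -0.078 and 0.24 and did not pass. None of the 21 TGF-beta and BMP loci, led by FSTL3 and AMH, and none of the 26 FGF, EGF, PDGF and ephrin loci tested, led by IGF1R and PDGFA, was called in H3K27me3. Their medians were 0.053 and -0.14. At a share of 3.43% lower, lists of this size can lack a call, so they set no contrast with the WNT list.

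Genes of membrane function and of chromatin are given beside the 3.43% lower and 0.97% higher of all bivalent loci tested. Their lists are too small to set 1 or 2 calls apart from these shares. Of 33 ion channel loci 1 was higher (HCN2) and none lower, and KCNK13 had 0.041. Of 18 neurotransmitter and G protein-coupled receptor loci tested 1 was higher (GRIN3B), and GPR162/P3H3 had -0.12. Of 46 solute carrier loci tested 2 were higher (PNCK/SLC6A8 and SLC8A2), while SLC34A3 and SLC22A23, the most strongly marked, had 0.057 and -0.16. No locus of the 24 for axon guidance and cell adhesion was called, with NTN3 at 0.18 and CDH16 at 0.052. None of the 7 loci of Polycomb and Trithorax subunits was called in H3K27me3, with a median of -0.030. Among them CBX7, which reads H3K27me3 as a subunit of Polycomb repressive complex 1, had 4.97 and 3.70 CPM in DMSO and 4.64 and 3.09 in PR-957, and the groups overlapped (log2 fold change -0.17 ± 0.31 SE, adjusted p = 0.872 by edgeR).

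Of 69 blood lineage transcription factors, 10 were at bivalent loci. EBF1, the B cell factor, had 59.6 and 66.6 CPM of H3K27me3 in DMSO and 53.5 and 54.3 in PR-957 (log2 fold change -0.23 ± 0.09 SE, adjusted p = 0.0985 by edgeR). H3K4me3 covered 9.94% of the EBF1 locus. FLI1, an ETS factor, had 20.0 and 22.6 against 16.5 and 18.6 CPM (-0.28 ± 0.14, adjusted p = 0.316 by edgeR). In both, the PR-957 libraries lay below the DMSO libraries without passing the test. None of the 10 loci of the list was called in H3K27me3, beside 3.43% lower over all bivalent loci tested. The median of the 10 was -0.22, or -0.057 with library size. Of the cell cycle inhibitor and p53 family list, 3 loci were bivalent (TP73/WRAP73, RASSF8 and DAPK1), with a median of -0.037.

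**Figure D4:**
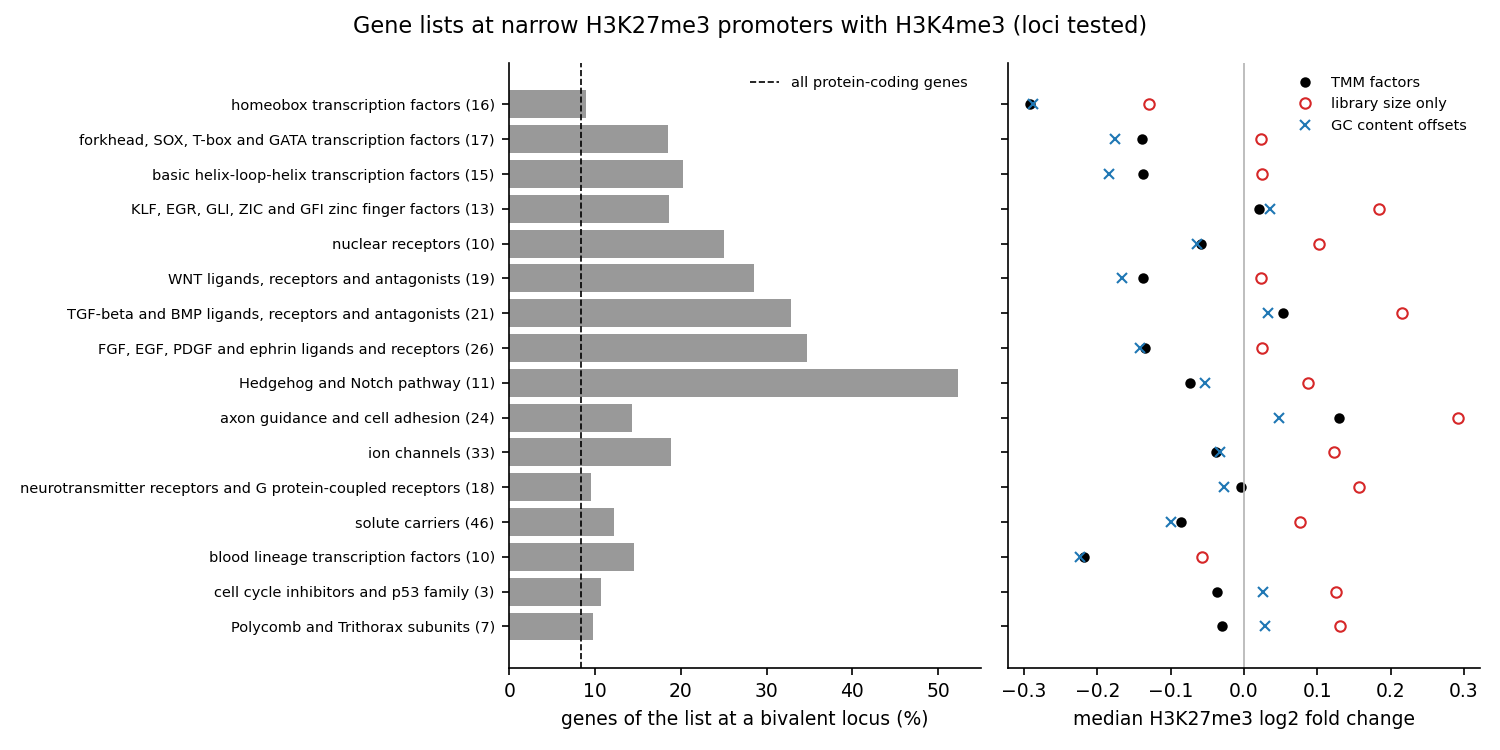
For each gene list, the percent of its genes at a bivalent locus (left, bars from 0, dashed line at 8.41% for all protein-coding genes) and the median H3K27me3 log2 fold change of its bivalent loci tested (right), with TMM factors, library size and GC content offsets. The number of loci tested stands after each list name. The homeobox and blood lineage medians lay below 0 under all 3 scalings.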

How the data were processed

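The authors aligned Cut&Tag reads to hg38 and deposited, for each library, raw counts per interval over 1 list of intervals per modification. The submitters' processing notes name Trimmomatic 0.39, Bowtie2 2.2.5, Picard 2.27.1, SAMtools 1.7, SEACR 1.3 and deepTools 3.5.1. The counting tool and the treatment of duplicates are not given in the sources used here.

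Loci were built from the deposited intervals and GENCODE 44, and each locus was read at its widest interval, in other marks at the widest interval overlapping it. Such an interval of another mark could lie mostly outside the locus. All intervals of a mark were fitted together with the edgeR 4.0.16 quasi-likelihood test (R 4.3.3, filterByExpr with a minimum count of 10, TMM factors), and p-values were adjusted by Benjamini-Hochberg over all of them at 0.05. Alternatives were other scalings (limma 3.58.1 for cyclic loess), GC content offsets, DESeq2 1.42.0, other filters and membership rules, a replicate block, and leaving out each library. Named loci were, per mark, those with the smallest p (10 in each direction for H3K27me3, 5 for the others) among called loci whose libraries did not overlap between groups, those called in 2 or more marks, the 2 with the highest H3K27me3 of each list, the 5 highest and lowest, and those at the width limit. The members, the lists and this rule were chosen with earlier results of these data known. A locus that this rule names is not reported here.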

Additional observations from a re-analysis of the deposited data

How the results depend on the processing

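The count of bivalent loci called in H3K27me3, 68 in all, was 33 with DESeq2 (24 lower, 9 higher), 39 with the replicate block and 31 with a width limit of 10 kb, and ran from 33 to 46 with 1 library left out. With cyclic loess it was 58, of which 24 lower and 34 higher, and with library size 89. The H3K27me3 median of -0.033 was 0.129 with library size, -0.013 with cyclic loess, -0.00207 at a mean count of at least 50 and -0.0982 with 1 interval per locus, and ran from -0.0635 to -0.0112 with 1 library left out. The 3 H3K4me3 calls were 5 with cyclic loess, 1 with GC content offsets and 0 with DESeq2, and ran from 0 to 5 with 1 library left out. The 2 H3K27ac calls were 1 with a width limit of 10 kb and ran from 1 to 2, and the H3K27ac median of 0.136 was 0.096 with GC content offsets and 0.0966 at a mean count of at least 50, and ran from 0.0843 to 0.162. The 16 H3K4me1 calls were 6 with GC content offsets and 0 with DESeq2, and ran from 2 to 11, and the H3K4me1 median of -0.145 was -0.00581 with GC content offsets and ran from -0.231 to -0.107. The cause of these moves was not tested. Deviations of same-numbered libraries had correlations of -0.00687 (H3K27me3), 0.167 (H3K4me3), -0.00886 (H3K27ac) and 0.00682 (H3K4me1). With only 2 numbers these cannot decide whether replicate numbers pair the libraries. With the block 28 loci were lower and 11 higher in H3K27me3, 3 higher and 1 lower in H3K4me3, 1 each in H3K27ac and 14 lower in H3K4me1. The other settings and membership rules left these total counts within 1.5-fold and these medians within the spread between libraries, although a mean count of at least 50 (45 higher, 38 lower) and 1 interval per locus (7 higher, 80 lower) changed the H3K27me3 split. None of the 30 called values at named loci that were followed through the settings changed sign. Values of named loci that were not called did, among them H3K27me3 at GLIS1 (-0.15 to 0.015), DHH (-0.078 to 0.085), GPR162/P3H3 (-0.12 to 0.045), TRIL (-0.16 to 0.0074) and RASSF8 (-0.037 to 0.13) with library size, and at SAMD11 (0.11 to -0.055) and SOX18 (0.030 to -0.085) with GC content offsets. Counts limit what could be called: the median bivalent locus had 94.8 counts per library in H3K27me3 and 50 in H3K27ac.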
